A study of Mus musculus with 6 samples.

Results

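The genes described here encode enzymes and adaptors that attach ubiquitin and related small proteins to other proteins, or remove them, together with subunits of the proteasome. They were taken by gene symbol alone, from families such as Ube2, Nedd4, Rnf, Cul, Fbx, Klhl, Kbtbd, Asb, Usp, Otub, Senp, Psm, Ubr and Ubash plus Cbl, Itch and Smurf, and 46 of the 2744 genes in the deposited table matched. They comprised 2 E2 enzymes of the Ube2 family, 4 HECT ligases, 13 genes of the Rnf and Cbl families (called RING ligases here), 1 N-recognin ligase, 1 cullin, 7 F-box receptors, 5 BTB or SOCS-box receptors, 8 deubiquitinases, 2 SUMO proteases, 2 proteasome subunits and 1 UBA-domain protein. The symbols bear the names out only in part: Rnf17 is best known as a Tudor-domain protein of germ cells, Ube2f carries NEDD8 rather than ubiquitin, and Senp2 and Senp3 act on SUMO.

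Ubiquitin is passed from an activating enzyme to an E2 conjugating enzyme, and an E3 ligase then selects the protein that receives it. HECT ligases take ubiquitin onto themselves before passing it on, most RING ligases bring the E2 and the substrate together, and cullin-RING ligases recruit substrates through exchangeable receptors of the F-box, BTB and SOCS-box families. Deubiquitinases remove the chains, and chains of certain linkages send a protein to the proteasome, while ubiquitin on receptors such as KIT directs them from the cell surface to the lysosome.

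Transcription was measured by PRO-seq, which sequences the short stretch of RNA that polymerases already engaged on a gene add when isolated nuclei are given biotinylated nucleotides (here for 3 min). The cells were bone marrow progenitors from female C57/BL6 mice with the genotype Mllt3 flox/flox Rosa26Cre+, labelled cKIT+; the age is not given in the labels. They were transduced with wild-type MLLT3 (WT, 3 libraries) or with MLLT3 K63E K67E (DM, 3 libraries), sorted, and grown for 8 days in methylcellulose with gentamycin and haematopoietic cytokines, among them FLT3 ligand, EPO, SCF, GM-CSF, IL-3, IL-6 and IL-11. In both groups the medium held 200 nM 4-hydroxytamoxifen, which removes the endogenous Mllt3, so both groups share this deletion, and there was no group that kept its own gene untouched. MLLT3 (AF9) is a chromatin reader of the super elongation complex, and K63E and K67E replace lysines with glutamates. The labels place all 6 libraries in batch 1 and do not say whether the libraries of a group came from separate mice or cultures, so the p-values below measure only the spread between these libraries, which may be technical.

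Each gene had 2 counts per library: the head, a window of 330 bp that begins 30 bp upstream of the annotated start and holds polymerases that have just initiated or are paused, and the body, the rest of the gene. Counts are given as reads in 1000000 of the deposited library total (RPM), in the order of library 1, 2 and 3. The WT libraries totalled 22981603, 15112853 and 22878677 reads, and the DM libraries 22842891, 20216996 and 19981672. Every gene in the table had passed the authors' own adjusted p under 0.05 for a body change between WT and DM, so the direction and size of body changes are a description here. The heads were not themselves used to choose the genes, but head and body of 1 gene tend to move together. Over all genes with a lower body 96.6% had a negative head change, so the head results are not free of that choice either. WT library 2 stood apart: over all genes it had 23.7 head reads per 100 body reads, against 13.4 and 14.9 in WT libraries 1 and 3 and 12.7 to 14.5 in DM, and it had the highest head RPM of the 6 libraries in 37 of the 46 members and in 51.1% of all genes. Spread beyond counting noise was larger in WT. Between pairs of libraries, chi-square per degree of freedom was 26.3 to 39.8 in WT and 2.72 to 7.03 in DM for bodies. For heads it was 8.63 to 15.1 and 1.80 to 2.64, low-count genes left out. Each fit took a single spread per gene over both groups, so the p-values mix these unequal spreads. A call lost without a DM library can therefore keep nearly the same fold change. Reads of Mllt3 itself, whose deposited coordinates do not separate the endogenous gene from a transduced copy, were at 84.4 ± 9.62 RPM in the WT body and 60.1 ± 2.50 in the DM body (SD, n = 3 each), and since the labels do not give the deleted part, they do not check the deletion.

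The sequences at the starts of 6 members are shown first because the counts below are read at these starts. Nedd4 and Rnf43 had lower heads in DM, Senp3 had a higher head, Kbtbd7 and Cbl had higher bodies with little difference in the heads, and Ube2c had the higher level per kilobase of the 2 E2 enzymes. Each is 300 bases from RefSeq on GRCm38.p6, from 250 bases before to 50 after the RefSeq start. Where the RefSeq start is also the authors' start, the last 80 bases overlap the head window. The overlap is smaller for Nedd4 and larger for Ube2c, whose starts differ by 16 and 30 bp, and the other starts differ by at most 3 bp. Capitals mark matches, on either strand, to the letters searched: GGGCGG for a GC box, CCAAT for a CCAAT box, TATAAA for a TATA box, CCGGAAGT for ETS factors, GAGGAAGT for PU.1, TGACGTCA for a CRE, TGACTCA for AP-1 and CACGTG for an E box. The positions, in the same order, are chr9:72662081-72662380 on the plus strand, chr11:87699647-87699946 on the plus strand, chr11:69682035-69682334 on the minus strand, chr14:79426261-79426560 on the plus strand, chr9:44233997-44234296 on the minus strand and chr2:164769679-164769978 on the plus strand.
Nedd4: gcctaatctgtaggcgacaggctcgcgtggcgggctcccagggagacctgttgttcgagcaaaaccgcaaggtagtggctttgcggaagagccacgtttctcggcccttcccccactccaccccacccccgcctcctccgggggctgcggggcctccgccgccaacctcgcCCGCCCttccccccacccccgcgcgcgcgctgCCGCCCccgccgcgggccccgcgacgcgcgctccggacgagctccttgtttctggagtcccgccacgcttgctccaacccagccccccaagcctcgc
Rnf43: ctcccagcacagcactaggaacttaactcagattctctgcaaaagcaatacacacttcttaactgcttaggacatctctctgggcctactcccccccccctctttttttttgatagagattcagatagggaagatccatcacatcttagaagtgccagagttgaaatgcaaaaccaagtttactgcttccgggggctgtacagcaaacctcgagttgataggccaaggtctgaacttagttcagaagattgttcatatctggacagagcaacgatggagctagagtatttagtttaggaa
Senp3: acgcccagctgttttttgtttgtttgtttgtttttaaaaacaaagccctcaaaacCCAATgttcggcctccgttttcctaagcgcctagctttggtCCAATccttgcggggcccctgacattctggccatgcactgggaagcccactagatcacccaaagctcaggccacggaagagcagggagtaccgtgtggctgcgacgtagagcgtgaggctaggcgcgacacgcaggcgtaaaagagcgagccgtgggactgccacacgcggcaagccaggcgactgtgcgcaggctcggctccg
Kbtbd7: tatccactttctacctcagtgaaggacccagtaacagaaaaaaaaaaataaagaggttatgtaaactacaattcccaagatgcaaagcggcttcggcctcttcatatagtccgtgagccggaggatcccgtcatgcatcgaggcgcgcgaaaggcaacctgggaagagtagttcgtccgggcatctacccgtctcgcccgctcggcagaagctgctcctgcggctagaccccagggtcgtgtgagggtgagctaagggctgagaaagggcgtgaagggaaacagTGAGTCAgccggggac
Cbl: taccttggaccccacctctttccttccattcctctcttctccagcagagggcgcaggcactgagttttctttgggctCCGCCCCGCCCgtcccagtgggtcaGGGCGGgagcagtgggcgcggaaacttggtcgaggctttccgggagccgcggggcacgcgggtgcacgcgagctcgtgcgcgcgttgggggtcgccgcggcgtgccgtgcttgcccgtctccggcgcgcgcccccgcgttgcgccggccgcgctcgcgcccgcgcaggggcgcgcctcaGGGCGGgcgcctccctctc
Ube2c: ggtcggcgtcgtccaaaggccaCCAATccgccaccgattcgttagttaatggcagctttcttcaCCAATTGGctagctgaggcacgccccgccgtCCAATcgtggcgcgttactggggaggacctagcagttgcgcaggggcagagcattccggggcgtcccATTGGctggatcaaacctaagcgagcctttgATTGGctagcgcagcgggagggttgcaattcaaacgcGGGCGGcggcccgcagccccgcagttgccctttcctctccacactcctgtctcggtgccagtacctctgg
The Nedd4 start lay in a sequence of 73% G and C with 2 GC boxes, and that of Cbl in one of 74% with 4. Rnf43 had 44.3% and none of the letters searched, Senp3 2 CCAAT boxes, Kbtbd7 a single AP-1 match near the end of the window, and Ube2c 6 CCAAT boxes and 1 GC box.

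All 46 members were named in RefSeq and 39 had a promoter entry there, of which 29 began within 50 bp of the start the authors used. Over those 29 the median content of G and C was 63.7%, against 63.7% over the 1519 promoters of the table's genes matched the same way and 52.7% over all 32851 promoters. A GC box was present in 20 of 29 (69.0%), with 72.5% in the table's promoters and 35.7% in all promoters. A CCAAT box was present in 11 of 29 (37.9%), with 37.1% in the table and 37.4% in all. The letters TATAAA were in none of the 29, against 6.25% of the table's promoters and 13.6% of all. The ETS letters were found at Psma6, Rnf41, Ube2f and Usp11 (13.8%, against 6.06% of the table's promoters and 3.89% of all). A CRE occurred at Senp2 only (2.50% of the table's promoters, 1.79% of all), the PU.1 letters at Psma6 only (4.61% and 3.20%), the AP-1 letters at Kbtbd7 only (4.21% and 5.20%), and an E box at Fbxl2 and Klhl22 (11.4% and 7.15%). A match says only that the letters are present.

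Among the members, transcription over the gene body was higher in DM for 24 genes and lower for 21, while Ubr4 did not pass (edgeR's quasi-likelihood test with Benjamini-Hochberg adjustment over 2721 genes). Over all genes 99.5% passed, 57.4% as higher and 42.1% as lower, which the choice of genes fixes. The members' summed body reads were 2717, 2308 and 2906 RPM in WT and 2698, 2628 and 2640 RPM in DM, and the WT range encloses the DM range. The bodies of all genes in the table held 17.0, 15.9 and 18.4% of the library totals in WT and 19.9, 18.9 and 19.6% in DM. The members' sum is weighted to genes with many reads, such as Nedd4l and Nedd4 (means of 368 and 255 RPM in WT). It does not say whether the 46 genes moved together. The members' median log2 fold change of DM over WT was 0.29, against 0.40 over all genes tested. Members with a positive change ranged from 0.20 to 1.33 (median 0.48, n = 25) and those with a negative one from -1.51 to -0.29 (median -0.51, n = 21). The authors' deposited table gave every one of the 46 the same sign. The DM libraries lay wholly above the WT libraries in 25 members and wholly below in 19 (over all genes, 56.9% and 38.2%), and they overlapped in Itch and Rnf17. In bulk nuclei such differences cannot be told apart from a different make-up of the cell population. Scaling by TMM lowered the median of all genes by 0.21 on the log2 scale and DESeq2's size factors by 0.33. Under these the same table gave 14 and 7 members higher in place of 24, with 21 lower in each, and the fitted sign turned negative for Ubr4 with both and for Klhl2, Psma6, Rnf130 and Smurf2 with DESeq2. Over all 2721 genes tested, 1562 higher became 1141 and 863, and 1145 lower became 1157 and 1158. When each library was left out in turn, 17 of the 24 higher and 9 of the 21 lower members passed in every fit. Leaving out DM library 1 gave 17 higher and 13 lower, and leaving out DM library 3 gave 18 and 10. Over all genes these 2 fits gave 1307 higher and 761 lower, and 1336 and 711, so calls fell over the whole table too.

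**Figure D1:**
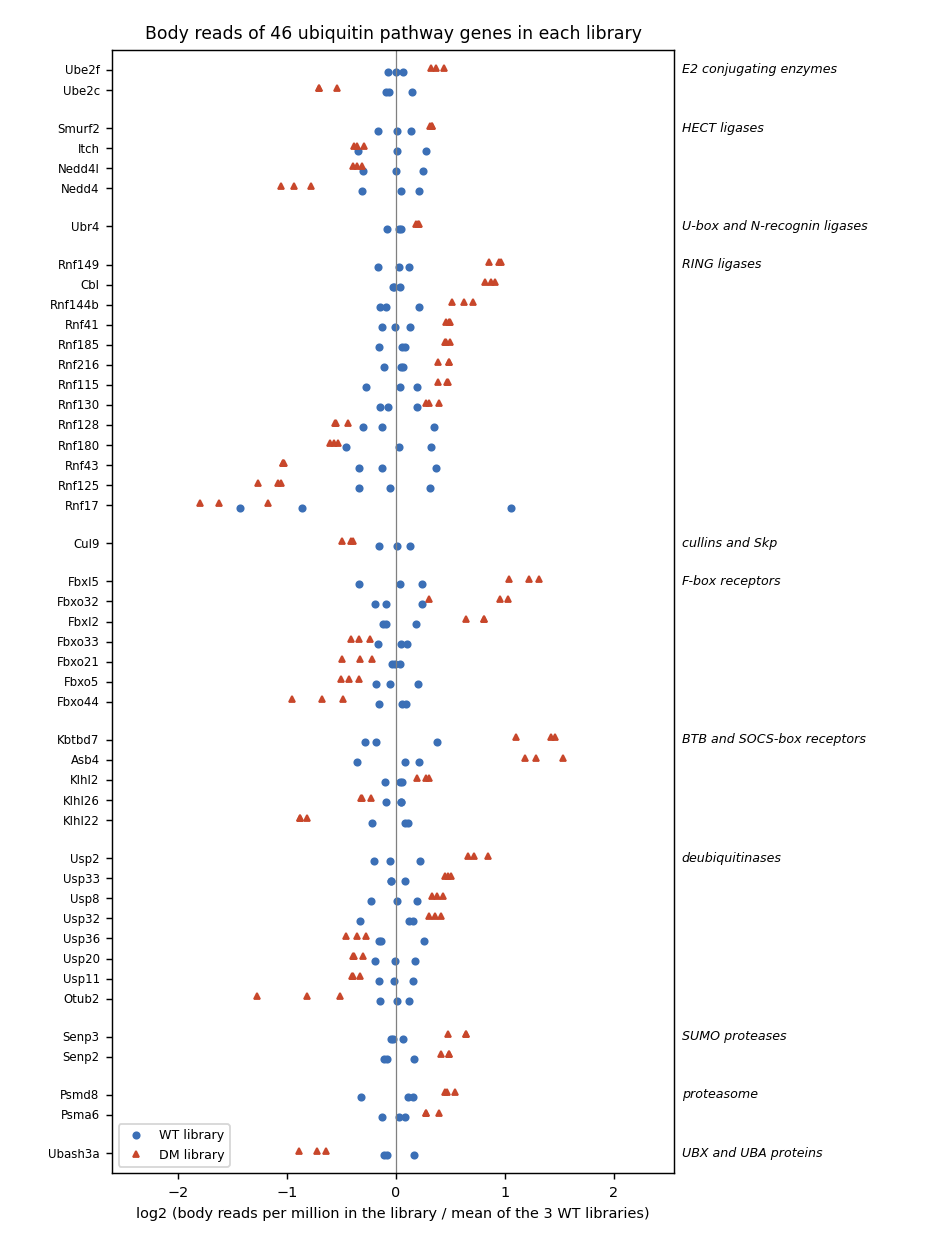
Body reads of each of the 46 members in each library, as log2 of the RPM over the mean of the 3 WT libraries, grouped by role; blue circles are WT and red triangles are DM libraries. The DM libraries lie right of all WT libraries in 25 members and left of them in 19, and Rnf17 shows 1 WT library far from the other 2; with DESeq2's size factors the direction of Klhl2, Psma6, Rnf130, Smurf2 and Ubr4 turns.

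Markers of the cell types in such cultures were in the table only where the authors had called a body change. That those present differed between the groups was therefore nearly fixed in advance. Over all genes tested 57.4% passed as higher and 42.1% as lower. Markers absent from the table were not read as unchanged. Of the progenitor markers (Kit, Cd34, Gata2, Meis1, Myb, Flt3 and Hoxa9), 6 of 7 were in the table, 5 were lower, and their summed bodies were 2600 to 3348 RPM in WT and 1573 to 1630 in DM. Of the granulocyte and monocyte markers 8 of 15 were in the table (Itgam, Lyz2, Csf1r, Ctsg, Csf3r, Cd68, Adgre1 and S100a8), 7 higher and 1 lower. They summed to 304 to 371 RPM in WT and 706 to 792 in DM. The erythroid and megakaryocyte markers (4 of 9 in the table, all 4 lower) summed to 197 to 223 RPM in WT and 107 to 125 in DM, and the mast cell and basophil markers (3 of 6, all 3 lower) to 1188 to 2204 and 943 to 1018. Of 5 lymphoid markers the table held Il7r, at 18.8 to 28.5 RPM in WT and 56.0 to 71.5 in DM. No marker in the table was at 0 in any library, and the part of these markers in the members' results was not tested.

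The 2 E2 enzymes moved in opposite directions. Ube2c, which starts the chains built by the anaphase-promoting complex in mitosis, had body values of 42.6, 36.9 and 36.1 RPM in WT and 23.7, 26.5 and 23.7 RPM in DM. All 3 DM libraries were below all 3 WT libraries, a difference of -0.65 on the log2 scale (SE 0.11, edgeR adjusted p = 0.00105), and the head did not pass (-0.47, adjusted p = 0.210). Its annotated span overlaps Tnnc2, and how the counting treated strand is not given in the sources used here. Ube2f, which hands NEDD8 to cullins, was at 42.2, 40.2 and 44.2 RPM in WT and 54.4, 57.3 and 52.7 RPM in DM. The groups were separate there too, at 0.38 (edgeR adjusted p = 0.00577), but this call was lost with TMM (0.16, adjusted p = 0.0784) and with DESeq2 (0.05, adjusted p = 0.691). Its heads overlapped between the groups, with a log2 fold change of 0.02 that turned negative with the authors' size factors.

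Among the HECT ligases Nedd4, Nedd4l and Itch had lower bodies and Smurf2 a higher one, whose sign turned with DESeq2's size factors. Nedd4 is the founding member of the NEDD4 subfamily of HECT ligases and targets many membrane proteins for endocytosis (ENSMUSG00000032216.15, chr9:72662347-72749852 on the plus strand). Its body values were 296, 205 and 263 RPM in WT and 134, 149 and 123 RPM in DM, and the head values 6.66, 15.9 and 10.5 and 3.72, 5.19 and 4.30 RPM. Every DM library was below every WT library in both regions. The body fell by 0.92 on the log2 scale (SE 0.15, edgeR adjusted p = 7.70e-04) and the head by 1.32 (SE 0.32, edgeR adjusted p = 0.0137), from 11.0 ± 4.63 to 4.41 ± 0.742 RPM (SD, n = 3 each). The head call was lost without DM library 1 (adjusted p = 0.0936) or DM library 3 (0.0616). Nedd4l, its closest relative and a regulator of the epithelial sodium channel, is the longest member at 330.1 kb and had 369, 298 and 436 RPM in WT and 296, 288 and 281 RPM in DM. Its DM values sat just under the lowest WT value, at -0.35 (edgeR adjusted p = 0.0323), and the call was lost without WT library 1 (0.0536), WT library 3 (-0.21, adjusted p = 0.0871) or DM library 1 (0.0725), 2 (0.0844) or 3 (0.0960).

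Itch, a ligase that restrains T cell activation, had 125, 97.9 and 151 RPM in the WT body and 95.6, 97.4 and 102 RPM in DM. WT library 2 was inside the DM range, so the groups overlapped at a log2 fold change of -0.35 (edgeR adjusted p = 0.0461), and in 5 of the 6 fits that left out a library the call was lost, with an adjusted p of up to 0.158. Its head had the opposite sign (0.07, adjusted p = 0.882), and it was the only member with a lower body and a positive head change (1.4% of all genes tested in both regions had these signs). Smurf2, which targets components of TGF-beta and BMP signalling, was at 55.5, 49.0 and 60.3 RPM in WT and 69.2, 68.2 and 68.9 RPM in DM. The DM values were nearly equal and above all WT values (0.32, edgeR adjusted p = 0.0160), and the call was lost without DM library 1 or 3 (highest adjusted p = 0.0586), with TMM (0.208) and with DESeq2 (0.936). Ubr4, a very large ligase of the N-degron pathway, was the member that did not pass: 175, 160.1 and 173 RPM in WT and 195, 196 and 192 RPM in DM, at 0.20 (edgeR adjusted p = 0.0547). It passed without WT library 1 (adjusted p = 0.0457) or WT library 3 (0.0356).

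Of the 13 genes of the Rnf and Cbl families 8 had higher and 5 lower bodies, and with DESeq2's size factors the sign of Rnf130 turned and 2 of the 8 still passed as higher. Cbl is the ligase that marks activated receptor tyrosine kinases, KIT among them, for internalisation. Its body was at 74.1, 71.1 and 70.8 RPM in WT and 132, 127 and 136 RPM in DM, with little spread in either group, and differed by 0.87 on the log2 scale (SE 0.09, edgeR adjusted p = 9.95e-05). Its head was at 5.70, 15.5 and 9.70 and 9.81, 10.3 and 11.6 RPM. The WT head values spread from below to above all DM values, and the head change was 0.05 (adjusted p = 0.938), which turned negative with the authors' size factors. Rnf149, a membrane-anchored RING protein, showed the same arrangement. Its body values were 55.4, 63.3 and 67.4 RPM in WT and 121, 113 and 119.8 RPM in DM, at 0.92 (edgeR adjusted p = 1.62e-04). Its heads overlapped, at 19.5, 25.0 and 27.0 and 25.0, 26.5 and 27.7 RPM (0.15, adjusted p = 0.700).

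Rnf144b, an RBR ligase that works through a catalytic cysteine as HECT enzymes do, had the highest head change among the 45 members whose head passed the filter on low counts (ENSMUSG00000038068.15, chr13:47193826-47247991 on the plus strand). The start the authors used for it lies 177 bp from the nearest RefSeq start, so the head window is placed by their annotation. Its head was at 2.00, 2.65 and 3.28 RPM in WT and 6.44, 6.43 and 6.96 RPM in DM, and its body at 14.5, 15.1 and 18.6 and 24.8, 26.3 and 23.0 RPM. Both regions were separate between the groups. The head rose by 1.32 (SE 0.27, edgeR adjusted p = 0.00810), from 2.64 ± 0.638 to 6.61 ± 0.302 RPM (SD, n = 3 each), and the body by 0.62 (adjusted p = 0.00312). The head call was lost without DM library 1 (edgeR adjusted p = 0.0584) although the fold change stayed at 1.34, and the body call was lost with DESeq2 (0.29, adjusted p = 0.0841).

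Rnf125 and Rnf43 had the opposite course. Rnf125, which ubiquitinates the RNA sensor RIG-I, had body values of 54.5, 34.7 and 42.3 RPM in WT and 21.2, 20.7 and 18.2 RPM in DM and head values of 12.8, 15.5 and 13.8 and 5.60, 7.96 and 5.51 RPM (ENSMUSG00000033107.6, chr18:20961473-20983862 on the plus strand). Both regions were lower in every DM library, by nearly the same factor. The body fell by 1.13 (edgeR adjusted p = 5.07e-04) and the head by 1.14 (SE 0.26, edgeR adjusted p = 0.0115), from 14.0 ± 1.34 to 6.36 ± 1.39 RPM (SD, n = 3 each). The head call was lost without DM library 1 (adjusted p = 0.0932) or DM library 3 (0.0938). Rnf43, a membrane ligase that removes Frizzled receptors of WNT ligands from the cell surface, had a body of 37.4, 43.3 and 60.8 RPM in WT and 23.0, 23.0 and 23.2 RPM in DM (ENSMUSG00000034177.15, chr11:87699898-87735539 on the plus strand). The DM values were almost identical and below all WT values, at -1.03 (edgeR adjusted p = 9.12e-04). Its head held few reads, 18, 37 and 48 for WT libraries against 12, 8 and 16 for DM libraries. In RPM that was 0.783, 2.45 and 2.10 and 0.525, 0.396 and 0.801, so WT library 1 fell just inside the DM range. The head change of -1.60 (SE 0.46) passed (edgeR adjusted p = 0.0253), and it was lost without WT library 3 (0.0981) or DM library 1 (0.117), 2 (0.0988) or 3 (0.0532). Rnf43 overlaps the gene 1110028F11Rik and Rnf144b overlaps Gm40934 and Gm52039 in RefSeq.

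Rnf17 had the most negative body change of all members, and 1 library decided it. The WT libraries held 315, 55 and 56 body reads and the DM libraries 49, 59 and 38. WT library 1 stood far above the other 5, which overlapped. The log2 fold change of -1.51 (edgeR adjusted p = 0.0351) became -0.37 without WT library 1 (adjusted p = 0.249). It was also lost without DM library 1 (0.0859), 2 (0.0621) or 3 (0.0918).

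The other 7 genes of these families moved less. Rnf41 (NRDP1, a ligase for ERBB3), Rnf185 (a ligase of the endoplasmic reticulum), Rnf216 (an RBR ligase), Rnf115 and Rnf130 were higher, with body log2 fold changes between 0.32 and 0.48 (edgeR adjusted p between 0.00254 and 0.0206). All had head changes that did not pass, between -0.20 and 0.24, and those of Rnf115 and Rnf185 turned sign with the authors' size factors and with TMM or DESeq2, respectively. The Rnf130 body call was lost without DM library 1, 2 or 3 (highest adjusted p = 0.0847), those of Rnf130 and Rnf115 with TMM (0.233 and 0.0696), and all 5 with DESeq2 (adjusted p between 0.142 and 0.944). Rnf128 (GRAIL, a ligase of T cell anergy) was at 71.7, 63.3 and 99.4 RPM in WT and 53.5, 57.7 and 53.0 RPM in DM, and Rnf180 at 211, 151 and 259.9 and 136, 139.9 and 143 RPM. Both were lower in every DM library, at -0.51 and -0.57 (edgeR adjusted p = 0.0146 and 0.0137), and the first was lost without DM library 3 (adjusted p = 0.0502).

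Cul9, an atypical cullin that binds p53 in the cytoplasm, was at 41.8, 46.9 and 51.1 RPM in WT and 35.0, 33.1 and 35.5 RPM in DM, which do not overlap (-0.43, edgeR adjusted p = 0.00556). Among the F-box receptors 3 were higher and 4 lower. Split by subfamily, a division made after the values were seen, both Fbxl genes were higher, and of the 5 Fbxo genes 1 was higher and 4 were lower. Fbxl5, the iron-sensing receptor that directs iron regulatory protein 2 to degradation, had 83.2, 55.4 and 72.2 RPM in WT and 174, 144 and 164 RPM in DM. Every DM library was well above every WT library, at 1.19 (SE 0.15, edgeR adjusted p = 2.88e-04), whereas the heads, at 12.9, 31.6 and 15.8 and 22.0, 24.3 and 23.1 RPM, overlapped. Fbxl2, a lipid-anchored receptor, went from 32.5, 32.0 and 39.3 RPM in WT to 60.5, 54.0 and 60.6 RPM in DM (0.75, edgeR adjusted p = 6.16e-04), with no overlap between the groups. The span of Fbxl2 overlaps Ubp1 and Gm36035 in RefSeq, so some of its reads may belong to those genes.

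Fbxo5 (EMI1), which inhibits the anaphase-promoting complex, was at 28.4, 21.8 and 23.7 RPM in WT and 18.3, 19.5 and 17.4 RPM in DM. The DM libraries were below the WT libraries (-0.42, edgeR adjusted p = 0.0138), and the call was lost without DM library 3 (adjusted p = 0.0564). Fbxo32 (atrogin-1), known from muscle wasting, was at 4.57, 6.15 and 4.90 RPM in WT and 10.6, 6.43 and 10.1 RPM in DM. DM library 2 was close to the highest WT value and the other 2 DM libraries were higher. Its change of 0.80 (edgeR adjusted p = 0.0151) was lost without DM library 1 (0.0770) or DM library 3 (0.0676), with TMM (0.0606) and with DESeq2 (0.129). Fbxo44, Fbxo21 and Fbxo33 were lower, between -0.69 and -0.33 (edgeR adjusted p between 0.0155 and 0.0178), and each was lost without DM library 3 and 1 other DM library (highest adjusted p = 0.0772).

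Of the 5 BTB and SOCS-box receptors 3 were higher and 2 lower, and the sign of Klhl2 turned with DESeq2's size factors. Kbtbd7, a CUL3 adaptor, was at 3.31, 2.25 and 2.10 RPM in WT and 7.00, 5.49 and 6.86 RPM in DM. The groups were far apart (1.33, SE 0.29, edgeR adjusted p = 0.00318), and its head, at 8.01, 12.3 and 7.52 and 9.67, 10.4 and 9.26 RPM, held more reads than its body in every library. Asb4, a SOCS-box receptor, was at 3.22, 2.38 and 3.54 RPM in WT and 8.80, 6.92 and 7.41 RPM in DM (1.33, edgeR adjusted p = 0.00184). The WT libraries held 1, 0 and 4 head reads and the DM libraries 20, 12 and 8, too few for the filter on low counts, and without the filter its head change was 2.88 (edgeR adjusted p = 0.0325). Klhl22, a CUL3 adaptor of mitotic cells, was at 31.1, 25.3 and 31.9 RPM in WT and 16.8, 16.0 and 16.0 RPM in DM, where all 3 DM libraries were alike and below WT (-0.86, edgeR adjusted p = 4.39e-04). Klhl26 was at 59.5, 54.2 and 59.5 and 46.2, 49.4 and 46.5 RPM (-0.29, edgeR adjusted p = 0.0167), lost without DM library 1 (0.0745) or DM library 3 (0.0711). Klhl2, a CUL3 adaptor for WNK kinases, was at 0.26 (adjusted p = 0.0250), lost without DM library 1 or 3 (highest adjusted p = 0.104), with TMM (0.545) and with DESeq2 (0.411).

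Of the deubiquitinases 4 were higher and 4 lower, and of the 4 higher, 2 passed with TMM and none with DESeq2, where all 4 kept a positive sign. Usp2, whose transcription follows the circadian clock in many tissues, was at 4.31, 5.76 and 4.76 RPM in WT and 8.10, 8.85 and 7.81 RPM in DM. The groups were separate (0.74, edgeR adjusted p = 0.0103), the call was lost with DESeq2 (0.42, adjusted p = 0.105), and the head held more reads than the body in every library, at 11.9, 26.5 and 18.4 and 20.4, 21.8 and 22.4 RPM. Usp33, Usp8 (which acts on endosomal cargo) and Usp32 were higher at 0.48, 0.38 and 0.36 (edgeR adjusted p = 0.00236, 0.0148 and 0.0282). Usp8 was lost without DM library 1 (0.0571) and with TMM (0.118), and Usp32 without DM library 1, 2 or 3 (highest adjusted p = 0.0882) and with TMM (0.245). With DESeq2 the adjusted p was 0.210 for Usp33, 0.718 for Usp8 and 0.866 for Usp32.

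Otub2, an OTU-family deubiquitinase, was at 10.1, 8.40 and 9.40 RPM in WT and 5.30, 6.53 and 3.85 RPM in DM, the largest fall of this class (-0.83, edgeR adjusted p = 0.0105). Usp11, which is linked to DNA repair, was at 26.7, 21.4 and 23.6 RPM in the WT body and 19.1, 18.2 and 18.1 RPM in DM (-0.38, edgeR adjusted p = 0.0151), and the body call was lost without DM library 3 (0.0579). Its head was at 8.05, 17.2 and 10.4 and 6.70, 7.22 and 7.06 RPM. All DM heads were below all WT heads, and the change of -0.76 did not pass (edgeR adjusted p = 0.0795), though it did with TMM (0.0108), with DESeq2 (0.00741), without WT library 1 (0.00842) and in the fit with a replicate block (0.0379). Usp20 and the nucleolar Usp36 were lower at -0.36 and -0.36 (edgeR adjusted p = 0.0147 and 0.0265). Usp20 was lost without DM library 1 (0.0576), and Usp36 without WT library 1 or any DM library (highest adjusted p = 0.0934).

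Both SUMO proteases had higher bodies. Senp3, a nucleolar protease for SUMO2 and SUMO3, was at 26.3, 24.7 and 24.3 RPM in WT and 39.2, 35.1 and 39.3 RPM in DM (ENSMUSG00000005204.12, chr11:69673116-69682084 on the minus strand), and its head at 13.1, 16.2 and 15.2 and 25.0, 24.2 and 27.7 RPM. Both regions were separate between groups. The body rose by 0.59 (edgeR adjusted p = 0.00102) and the head by 0.79 (SE 0.24, edgeR adjusted p = 0.0303), from 14.8 ± 1.58 to 25.6 ± 1.83 RPM (SD, n = 3 each). The head call was lost with the authors' size factors (adjusted p = 0.0726) and without WT library 3 (0.0820) or DM library 1 (0.132), 2 (0.102) or 3 (0.190). Senp3 overlaps Tnfsf13os, so some of its reads may belong to that gene. Senp2 was at 39.2, 33.1 and 32.4 RPM in WT and 49.0, 46.6 and 49.0 RPM in DM (0.47, edgeR adjusted p = 0.00403). That call was lost with DESeq2 (0.13, adjusted p = 0.339), and its heads overlapped at 8.35, 9.33 and 7.08 and 7.31, 7.17 and 6.91 RPM.

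The proteasome subunits Psmd8, of the lid of the regulatory particle, and Psma6, of the outer ring of the core, had higher bodies, and the sign of Psma6 turned with DESeq2's size factors (-0.019, adjusted p = 0.885). Psmd8 was at 16.8, 22.6 and 23.3 RPM in WT and 28.9, 28.6 and 30.5 RPM in DM, and Psma6 at 26.5, 23.8 and 27.5 and 34.1, 31.4 and 31.5 RPM. The groups were separate in both, at 0.49 and 0.31 (edgeR adjusted p = 0.0103 and 0.0172). With TMM neither passed (adjusted p = 0.0880 and 0.255), nor did Psmd8 with DESeq2 (0.16, adjusted p = 0.381), and Psma6 was lost without DM library 1 (0.0782) or DM library 3 (0.0509). Ubash3a, a UBA-domain phosphatase-family protein known from T cells, was at 12.5, 15.2 and 12.8 RPM in WT and 8.14, 8.66 and 7.26 RPM in DM, lower in every DM library (-0.75, edgeR adjusted p = 0.00318).

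Per kilobase, the highest WT body levels were those of Ube2c, at 4.47 ± 0.411 RPKM (RPM per kilobase; SD, n = 3), Fbxo5 (4.01 ± 0.556) and Psmd8 (3.45 ± 0.592). The spread of Fbxo5 overlapped those of Ube2c and Psmd8, while Ube2c (4.95, 4.28 and 4.19) was above Psmd8 (2.77, 3.73 and 3.85) in all WT libraries. In DM the highest were Psmd8 (4.84 ± 0.164), Rnf149 (4.56 ± 0.174), Senp3 (4.37 ± 0.279) and Fbxl5 (4.31 ± 0.410; SD, n = 3 each), and Ube2c was at 2.86 RPKM. Rnf17 was lowest in both groups, with 0.0541 and 0.0190 RPKM. The median of the means over all 6 libraries over the 46 members was 1.05 RPKM and that over all genes 1.01. The members' genes had a median length of 39.4 kb (4.53 kb for Kbtbd7 to 330.1 kb for Nedd4l), against 33.8 kb over all genes, and they were spread over 19 chromosomes. Some level may belong to neighbours, since 22 of the 46 overlapped another RefSeq gene.

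At the heads, 5 of the 45 members tested passed (11.1%, against 20.3% of all 2579 genes tested). Rnf144b and Senp3 were higher and Nedd4, Rnf125 and Rnf43 lower (over all genes 9.62% were called higher and 10.7% lower, by edgeR's adjusted p under 0.05). At an unadjusted p under 0.05 there were 2 higher and 9 lower (4.44% and 20.0%, against 15.5% and 21.7% of all genes). The median head change of the members was -0.27, against -0.11 over all genes tested. Without WT library 2 these became -0.03 and 0.10, and without WT library 1 -0.40 and -0.26. By RPM, the DM libraries lay above the WT libraries in 3 members (Asb4, Rnf144b and Senp3; 17.7% of all genes) and below in 9 (Fbxl2, Fbxo5, Nedd4, Rnf125, Rnf180, Ubr4, Ube2c, Usp11 and Usp36; 23.3% of all genes), and overlapped in 34. The members' summed heads were 424, 765 and 535 RPM in WT and 484, 546 and 514 RPM in DM. WT library 2 was the highest and WT library 1 the lowest of the 6.

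**Figure D2:**
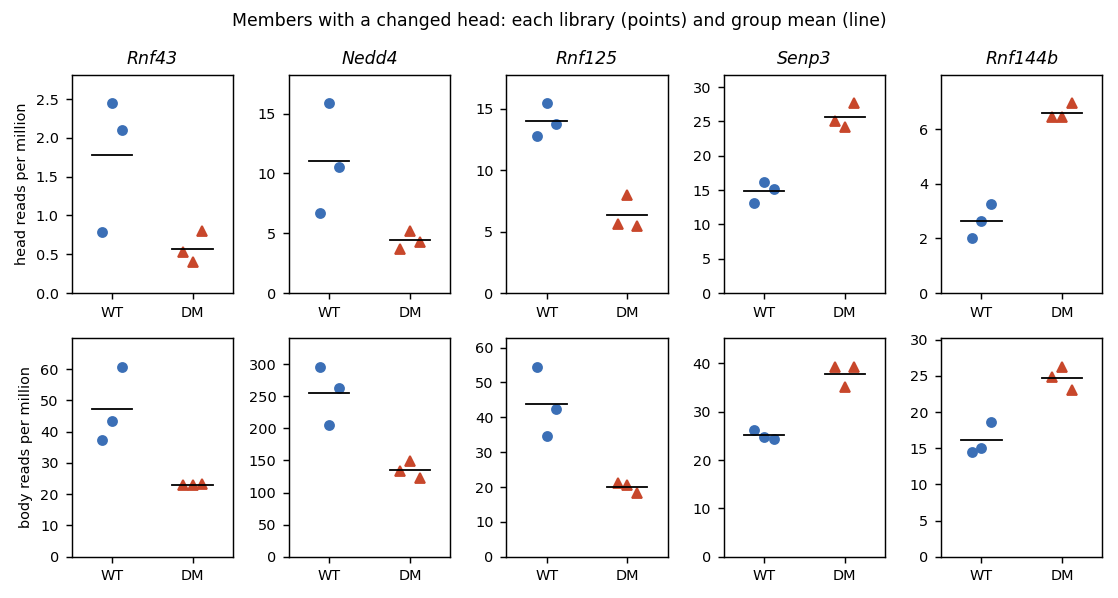
Head RPM (top) and body RPM (bottom) for the 5 members whose head passed edgeR's test, each point 1 library and each line the group mean, on linear axes from 0. The heads of Nedd4 and Rnf125 are lower and those of Senp3 and Rnf144b higher in every DM library, and for Rnf43 WT library 1 (0.783) lies just under the highest DM value (0.801).

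Which further members passed at the head depended on the WT library left out. Without WT library 2, 8 members passed as higher (Asb4, Fbxl5, Fbxo32, Rnf144b, Rnf216, Senp3, Usp2 and Usp33) and 3 as lower (17.4% and 6.52%). Over all genes 22.1% were then higher and 13.9% lower. Without WT library 1, 3 passed as higher and 11 as lower (Cul9, Fbxo21, Klhl22, Nedd4, Otub2, Rnf125, Rnf128, Rnf180, Rnf43, Ubash3a and Usp11; 6.52% and 23.9%). Over all genes 9.97% were then higher and 22.6% lower, so the whole table moved the same way as the members. Nedd4, Rnf125 and Rnf43 were lower, and Rnf144b and Senp3 higher, in both of these fits. Without DM library 1 no member passed by edgeR, with 5 at an unadjusted p under 0.05, and over all genes only 10 higher and 4 lower were left. Without DM library 3 none passed as lower.

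Body and head were then set side by side in each member. Of the 24 members with a positive body change and a tested head, 12 had a negative head change (50.0%, against 32.2% of the 1521 such genes in the table; the 489 genes concerned are 19% of all 2577 tested in both regions). They were Fbxl2, Klhl2, Psma6, Psmd8, Rnf130, Rnf185, Senp2, Smurf2, Ubr4, Usp8, Usp32 and Usp33, and none of these heads passed on its own. Their number followed the scaling and WT library 2: it was 10 of 23 with TMM, 6 of 19 with DESeq2, 15 of 24 with the authors' size factors, 7 of 25 without WT library 2 (28%, all genes 11.5%) and 19 of 25 without WT library 1 (76%, all genes 44.5%). The median head change of the members with a positive body change was -0.01, against 0.24 over all such genes. Of the 21 members with a lower body, 20 had a negative head change (95.2%, all genes 96.6%), with a median of -0.57 against -0.65 over all such genes.

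**Figure D3:**
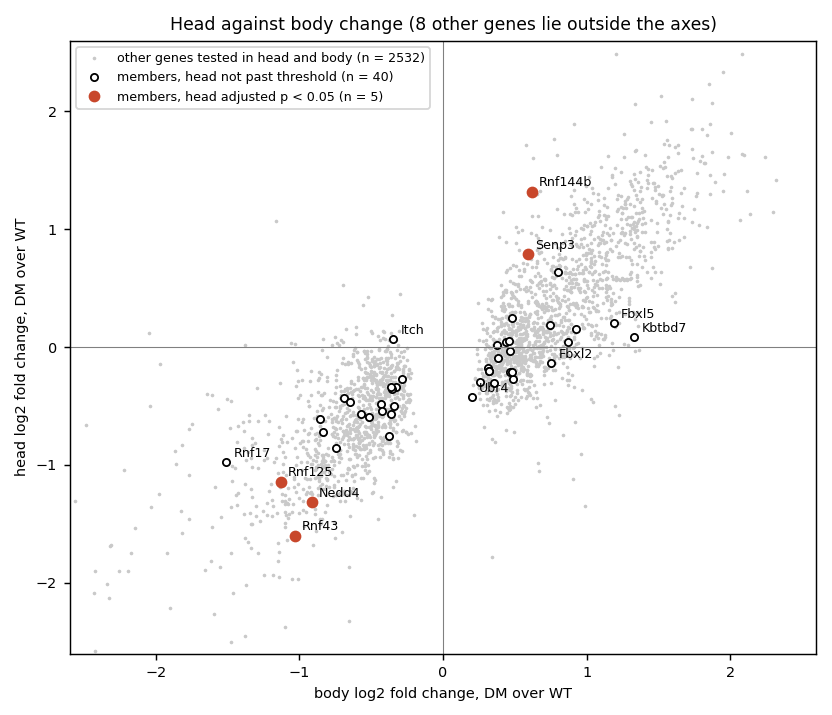
Head log2 fold change (vertical) against body log2 fold change (horizontal), DM over WT, for the members (open circles, and filled where the head passed edgeR's test, n = 5) and the other 2532 genes tested in both regions (grey; 8 of them lie outside the axes). Members with a positive body change spread around a head change of 0 and those with a negative one lie below it apart from Itch; no genes lie near a body change of 0 because the table holds only genes the authors called.

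The ratio of head to body was tested directly, as the change of the head relative to the change of the body within each library. The body is the denominator of this ratio and every gene was chosen for a body change, so the ratio is not free of that choice. No member passed in either direction (45 tested, edgeR interaction test with Benjamini-Hochberg adjustment), and of all 2577 genes 0.0776% did. At an unadjusted p under 0.05 there was 1 member higher (all genes 1.79%) and 6 lower (all genes 13.5%). DESeq2 called none of the members. The median change in the ratio was -0.31 on the log2 scale, against -0.26 over all genes. Of the members 32 had a negative and 13 a positive change, and of all 2577 genes 1885 had a negative and 692 a positive one. The members' split was thus near that of the table. Members with a higher body had a median of -0.48 (22 of 24 negative) and those with a lower body 0.0008 (10 of 21 negative). The same split by body direction is not given here over all genes, so it is not read as a trait of the members. With head and body libraries scaled separately by TMM, the medians became -0.00 for the members and 0.05 for all genes, so the direction over all genes turned with the scaling. Without WT library 2 the medians were 0.07 for the members and -0.07 for all genes.

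As a level, the density of head reads per kilobase over that of body reads had a median of 31.6 in WT and 23.9 in DM over the members, and 19.3 and 15.5 over all genes. The members' median was 21.6, 40.9 and 26.6 in the WT libraries and 20.2, 26.4 and 23.7 in the DM libraries, and without WT library 2 that of WT was 25.5. The highest ratios in WT were those of Usp32 (150.04 ± 81.1), Smurf2 (139.9 ± 47.6), Klhl2 (139 ± 86.1) and Rnf216 (135 ± 71.2; SD, n = 3 each), and their spreads overlap one another. The lowest were those of Asb4 (3.13 ± 3.82), Rnf43 (4.00 ± 1.93) and Fbxo5 (5.06 ± 0.958), in the same unit. For Fbxo5 the authors' start lies 135 bp from the nearest RefSeq start. Kbtbd7, the shortest member, had ratios of 31.0, 70.0 and 45.9 in WT and 17.7, 24.3 and 17.3 in DM. The DM ratios were all lower, by -1.22 on the log2 scale (SE 0.33, edgeR adjusted p = 0.183). That difference passed with the replicate number as a block (0.0414) and without WT library 1 (0.0375). Fbxl2 had ratios of 69.4, 81.2 and 54.4 in WT and 35.0, 39.3 and 34.9 in DM (-0.89, edgeR adjusted p = 0.202), and Rnf149 ratios of 27.4, 30.9 and 31.3 and 16.2, 18.4 and 18.1 (-0.77, adjusted p = 0.219). In both the DM libraries were lower without overlap, and without WT library 2 both passed (adjusted p = 0.0339 and 0.0299). Kbtbd7, Fbxl2 and Rnf149 were all genes chosen with a higher body, which by itself lowers the ratio. Rnf144b was the member with a ratio higher in DM at an unadjusted p under 0.05 (22.5, 28.6 and 28.7 in WT, 42.4, 40.0 and 49.3 in DM; 0.72, edgeR adjusted p = 0.265), and it passed with separate TMM factors (0.0435). Itch passed as higher with separate TMM factors (0.73, adjusted p = 0.0346) and without WT library 2 (0.72, adjusted p = 0.0424).

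**Figure D4:**
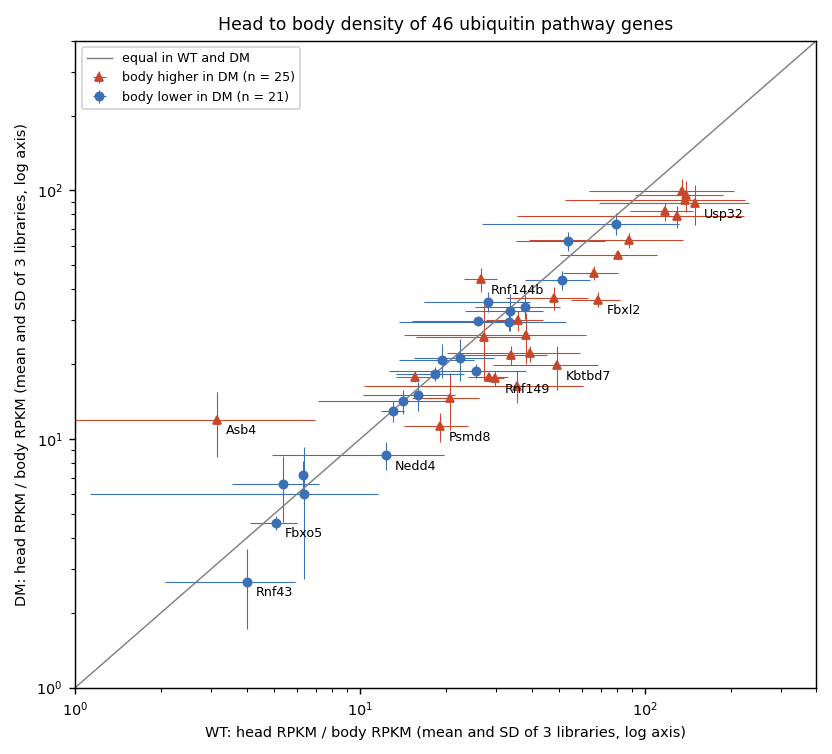
Head RPKM over body RPKM in DM against WT for the 46 members on log axes, each point the mean and each bar the SD of 3 libraries, with red triangles for a higher and blue circles for a lower body in DM (the bar of Asb4 is cut at the left edge); the grey line marks equal ratios. The red triangles lie below the line apart from Asb4, Rnf144b and Senp3, and the median over members is 31.6 in WT (25.5 without WT library 2) and 23.9 in DM. The red triangles were chosen for a higher body, the denominator of the ratio, so their side of the line is not free of that choice.

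Other genes of the pathway, from a textbook list of 167 symbols outside the families above, gave 29 in the table. Their bodies were higher in 16 and lower in 13 (median 0.33), where 57.4% of all genes tested were higher and 42.1% lower. The median head change was -0.24, against -0.11 over all genes tested. Of the 29 heads 3 passed, all lower (10.3%, against 20.3% of all genes tested, with 10.7% called lower). These were Dtx4, a Deltex ligase of the Notch pathway (-0.95, edgeR adjusted p = 0.0190), Dcaf1, a receptor of CUL4 ligases (-0.94, adjusted p = 0.0304), and the HECT gene Hectd2 (-0.93, adjusted p = 0.0400). In 9 of the 29 a positive body change went with a negative head change (19% of all genes tested in both regions had these signs). The members' counts at the heads (5 of 45, 3 of them lower) stood beside these without a test between the lists.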

How the data were processed

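The authors deposited raw read counts for the head and body of 3022 transcript rows in 6 libraries, their RPKM values, library totals, and a body comparison with mean signal, log2 fold change and p-values. The submitters' processing notes name cutadapt, Trimmomatic, Bowtie 1.1.2, MACS2, bedtools 2.28 and the builds mm10 and dm3, with no role or order; the annotation, the counting, its use of strand and how the library totals were counted are not given in the sources used here. Body RPKM from the deposited counts, totals and lengths equalled the deposited values to a relative 1.22e-13. All rows held an authors' adjusted p of at most 0.0498.

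For each of 2744 genes a single row was kept, that with most body reads on average (278 rows left out). Counts were tested with edgeR 4.0.16 (glmQLFit and glmQLFTest, filterByExpr, R 4.3.3), separately for bodies and heads, with offsets from the library totals, and the ratio as the interaction of region and group with library as a block. Benjamini-Hochberg adjustment ran over all genes tested, with a threshold of 0.05. Library totals were preferred to TMM because the table holds only genes that differ. The scripts were tested on simulated data. The labels do not say whether replicate numbers pair the libraries, and the main fits did not pair them. The deviations of same-numbered libraries correlated at -0.0875, -0.179 and 0.373 for bodies and 0.0899, -0.0457 and 0.0238 for heads. These values cannot exclude a pairing.

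Alternatives were TMM, the authors' size factors (recovered from their mean signal), DESeq2 1.42.0, no filter, a replicate block, all transcript rows, separate TMM factors for the ratio, and leaving out each library. Genes named singly are members past the head threshold, the 5 largest body changes each way without overlap, the highest level and the 2 largest body changes of each class, and the 4 smallest p-values of the ratio; members described beyond these, and those listed by sign or motif, were chosen after their values were seen. Members and lists were chosen with earlier results of these data known. Sequences come from RefSeq tables for GRCm38.p6.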

Additional observations from a re-analysis of the deposited data

How the results depend on the processing

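Among members, the number with a higher body (24) was 14 with TMM and 7 with DESeq2, and 17 to 25 when a library was left out; the number lower (21) was the same with both and 10 to 21 when a library was left out. Members whose body sign turned were Psma6 with DESeq2 (-0.019, adjusted p = 0.885) and Ubr4 with TMM (-0.016, adjusted p = 0.832) and DESeq2 (-0.13, adjusted p = 0.0784), beside Klhl2, Rnf130 and Smurf2 with DESeq2. Heads higher (2) became 1 with the authors' size factors and 0 to 8 when a library was left out. Heads lower (3) became 7 with TMM, 5 with DESeq2 and 0 to 11 when a library was left out. Ratio calls (0 each way) became 2 higher with separate TMM factors and 0 to 1 higher and 0 to 2 lower when a library was left out. With the replicate number as a block, 23 members were higher and 21 lower in the body, 2 higher and 4 lower in the head, and 1 lower in the ratio; over all genes the block gave 375 heads higher and 421 lower in place of 248 and 276. Over all genes, bodies higher (1562) became 863 with DESeq2, bodies lower (1145) became 761 and 711 without DM library 1 and 3, heads higher and lower became 496 and 488 with TMM and 465 each with DESeq2, and heads fell to 10 higher and 4 lower without DM library 1. Of 336 alternative values for the bodies of 28 named members 304 kept their direction and side of the threshold, as did 46 of 60 for 5 heads and 39 of 44 for 4 ratios. The cause of these changes was not tested. Low head counts limit Asb4, Ubash3a, Rnf17 and Rnf43.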
